A study of Mus musculus with 12 samples.

Results

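Naïve CD8+ T cells carry receptors for many cytokines, and 10 genes that encode chains of such receptors other than the IL-2 receptor were followed here through T cell receptor stimulation and LAIR-1 triggering. They are Il7r, Il4ra and Il21r, whose products pair with the common gamma chain, Il6ra and Il6st of the IL-6 receptor, Il10ra of the IL-10 receptor, Ifngr1 and Ifngr2 of the interferon-γ receptor, and Ifnar1 and Ifnar2 of the type I interferon receptor. They were chosen by gene symbol, and all 10 were found among the 14323 genes counted. The spleens came from 3 mice of wild type genotype, sorting kept T cells positive for TCRβ, CD8 and CD62L and negative for CD44, and each well of a coated plate held 100000 of them for 6 h. The 4 conditions were isotype control without anti-CD3 (unstimulated isotype), the anti-LAIR-1 antibody 2C7 without anti-CD3 (unstimulated anti-LAIR-1), anti-CD3ε with isotype control (anti-CD3 isotype) and anti-CD3ε with anti-LAIR-1 (anti-CD3 anti-LAIR-1), each antibody at 2.5 µg/ml. Each mouse gave 1 library per condition, so that there were 12 libraries and 3 per condition. No co-stimulatory antibody is named for any condition, the study's methods describe adult animals of C57BL/6N background without giving the sex of these 3, and LAIR-1 was engaged by a plate-bound antibody and not by collagen.

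Cytokine receptors of these families signal through JAK kinases bound to their intracellular parts, which phosphorylate STAT transcription factors. The IL-7 receptor keeps naïve T cells alive between encounters with antigen, and its RNA is known to fall after T cell receptor triggering. IL-4, IL-6, IL-10, IL-21 and the interferons shape what a CD8+ T cell becomes once it is activated. LAIR-1 is an inhibitory collagen receptor of immune cells, and its triggering with an antibody addresses whether it changes the response to anti-CD3.

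Library totals were between 1781218 and 7725545 counts, with medians of 2304214, 3548881, 4883760 and 6204054 in the order of conditions above. A level is given as CPM, the usual depth-scaled count, with the library size corrected by the TMM method, and 3 counts were 0.407 to 1.58 CPM. RNA was read near its 3′ end, so that CPM is not divided by transcript length and levels are compared between conditions and not between genes. The 10 markers of CD8+ T cells were detected in every condition, and they summed to 5026 to 5598 CPM per library without anti-CD3. With anti-CD3 their sums were lower, at 2930 to 3056 CPM with isotype and 3446 to 3849 CPM with anti-LAIR-1. The 6 markers of naïve T cells summed to 5525 to 6865 CPM per library without anti-CD3, to 526 to 618 CPM with anti-CD3 and isotype, and to 810.1 to 1028 CPM with anti-CD3 and anti-LAIR-1. Markers of CD4+ and regulatory T cells summed to at most 4.73 CPM and those of erythroid cells and platelets to at most 0.827 CPM. Markers of B cells summed to at most 9.99 CPM and those of myeloid and dendritic cells to at most 12.2 CPM in any library, over the 6 of 8 and 7 of 11 listed genes that had a row in the counts. Of the 5 NK cell markers with a row, Nkg7, which activated CD8+ T cells also express, led with means of 43.1, 45.8, 172 and 106 CPM. Mitochondrial genes took 17.6 to 20.9% of counts without anti-CD3 and 11.5 to 13.2% with it, and their part in the results was not tested. Lair1 itself had 0 to 7 counts per library, too few to compare.

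The promoters of Il7r, Ifngr1 and Ifnar1 are shown because the differences with anti-LAIR-1 turn on these genes. Each is printed as the sequence from 250 bases before to 50 bases after the annotated start, 5′ to 3′ on the strand of the gene, in RefSeq's GRCm38.p6 assembly (mm10). Ifngr1 lies at chr10:19591699-19591998 on the plus strand, Il7r at chr15:9529827-9530126 on the minus strand and Ifnar1 at chr16:91484965-91485264 on the plus strand. The RefSeq start of Il7r, from which positions are counted, lies inside the limits that GENCODE gives the gene (chr15:9505788-9530176), so that its whole printed window falls within them. Capitals mark letters that match, on either strand, the GAS element bound by STAT dimers (TTC and GAA with 3 bases between), the FOXO element (TGTTTAC or TGTTTGC), the KLF element CACCC or the NFAT core GGAAA, and no marked stretches overlap.
Il7r: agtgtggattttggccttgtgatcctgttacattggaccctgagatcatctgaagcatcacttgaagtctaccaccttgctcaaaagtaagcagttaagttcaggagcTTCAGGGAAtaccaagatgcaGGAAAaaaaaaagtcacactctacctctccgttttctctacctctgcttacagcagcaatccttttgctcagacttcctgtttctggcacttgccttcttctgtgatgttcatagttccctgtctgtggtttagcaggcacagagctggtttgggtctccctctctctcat
Ifngr1: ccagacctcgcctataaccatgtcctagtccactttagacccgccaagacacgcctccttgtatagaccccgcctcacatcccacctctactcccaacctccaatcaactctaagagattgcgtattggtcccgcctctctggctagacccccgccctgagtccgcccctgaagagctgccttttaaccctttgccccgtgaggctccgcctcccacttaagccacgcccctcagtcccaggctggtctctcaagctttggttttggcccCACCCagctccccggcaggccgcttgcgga
Ifnar1: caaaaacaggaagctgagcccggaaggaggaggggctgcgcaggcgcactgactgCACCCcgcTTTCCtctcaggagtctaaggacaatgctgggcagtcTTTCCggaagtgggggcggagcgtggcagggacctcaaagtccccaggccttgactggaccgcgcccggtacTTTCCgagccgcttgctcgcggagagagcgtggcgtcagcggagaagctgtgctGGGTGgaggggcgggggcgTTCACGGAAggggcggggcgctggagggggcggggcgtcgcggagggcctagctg
The Il7r promoter held 1 GAS match, at position -142 from the start, and 1 NFAT core match. The Ifnar1 promoter held 1 GAS match at position -5, 2 KLF matches and 3 NFAT core matches, and the Ifngr1 promoter held 1 KLF match. Of the 9 receptor genes with a promoter sequence, 3 held a GAS match (Il7r, Ifnar1 and Ifnar2), 2 a FOXO match (Il4ra and Il21r), 7 a KLF match and 5 an NFAT core match. Among all 32851 promoters the shares were 8.30%, 8.48%, 57.5% and 61.3%. Such matches describe the letters in these windows and not binding.

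In the isotype libraries, stimulation with anti-CD3 changed 8 of the 10 receptor genes, with 7 lower and only Il21r higher. A gene was called changed where the quasi-likelihood test of edgeR gave a p-value under 0.05 after Benjamini-Hochberg adjustment for the whole table of tested genes. Il4ra and Ifnar2 did not pass. At this stimulus 71.3% of the 8690 genes tested changed, 36.1% lower and 35.3% higher, so that a change as such was common. The median log2 fold change of the 10 genes was -2.64, against -0.03 for all genes tested. Il10ra entered these tests through its unstimulated libraries alone, with 0, 1 and 0 counts in the stimulated isotype libraries, and counted without it 7 of 9 genes were called, 6 of them lower, with a median of -1.98. In the anti-LAIR-1 libraries the same 7 genes were lower and Il21r was higher with anti-CD3, against 72.7% of 9000 genes called, 36.3% lower and 36.4% higher. The medians were -2.06 and -0.04, and without Il10ra the count was again 7 of 9 with 6 lower and the median of the genes was -1.25. The 2 groups of each anti-CD3 comparison did not overlap for 8 of the 10 genes, or 7 of 9 without Il10ra, which was so for 73.4% of all genes with isotype and 74.7% with anti-LAIR-1. In bulk RNA, fewer cells with a transcript and less transcript per cell cannot be told apart.

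**Figure D1:**
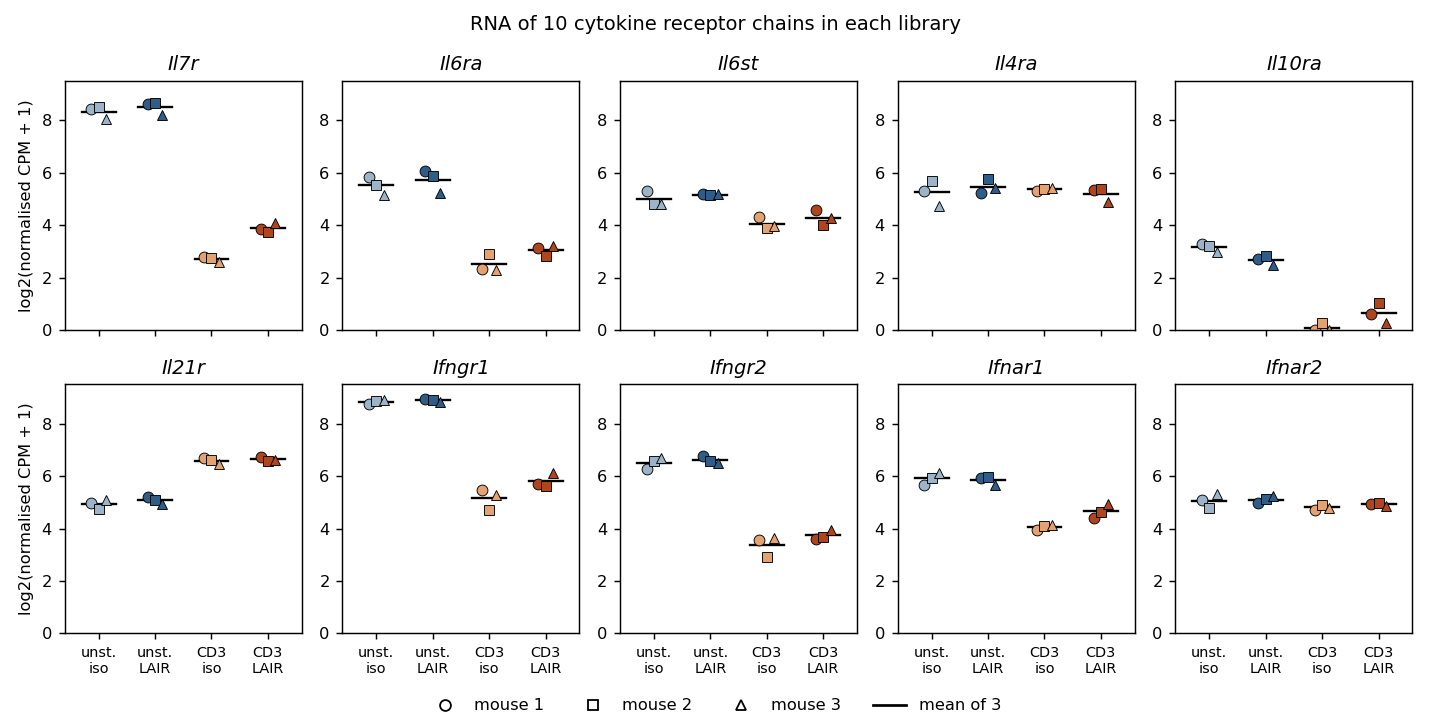
Level of each of the 10 receptor genes in the 12 libraries, as log2(normalised CPM + 1) on the vertical axis, for unstimulated (unst.) and anti-CD3 (CD3) cells with isotype (iso) or anti-LAIR-1 (LAIR). Symbols are the 3 mice and bars their means; Il7r stands at 263 to 402 CPM without anti-CD3 and at 5.02 to 15.9 CPM with it, while the stimulated and unstimulated libraries of Il4ra and Ifnar2 overlap.

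Il7r encodes the IL-7 receptor α chain and was the most strongly reduced of the genes with enough reads in all conditions. With isotype it was at 341, 361 and 263 CPM in mice 1, 2 and 3 without anti-CD3, and at 5.84, 5.79 and 5.02 CPM with anti-CD3. The mice thus kept 1.71, 1.61 and 1.91% of the unstimulated level, and the groups lay far apart. The log2 fold change was -5.95 (SE 0.16, adjusted p = 5.44e-19), or 61.6-fold lower, which ranked number 6 from the lowest of 8690 genes. With anti-LAIR-1, Il7r was at 397, 402 and 297 CPM without anti-CD3 and at 13.3, 12.4 and 15.9 CPM with it. These libraries kept 3.35, 3.09 and 5.33% of the unstimulated level, a log2 fold change of -4.75 (SE 0.14, 26.9-fold lower, adjusted p = 9.00e-16).

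The other chains that pair with the common gamma chain behaved differently from Il7r. Il21r, the receptor chain for IL-21, was the only one of the 10 genes to rise. It was at 30.5, 25.8 and 33.1 CPM in unstimulated isotype libraries and at 101, 96.3 and 87.6 CPM after anti-CD3, a 3.03-fold rise (log2 fold change 1.60, SE 0.14, adjusted p = 3.26e-10). With anti-LAIR-1 it was at 35.6, 33.2 and 29.7 CPM before and 106, 93.9 and 96.2 CPM after, a 2.98-fold rise (adjusted p = 2.78e-10). Every stimulated library was above every unstimulated one. Il4ra, the α chain for IL-4 and IL-13, was at 38.5, 51.1 and 25.8 CPM unstimulated and 39.0, 41.0 and 41.5 CPM stimulated with isotype, so that the groups overlapped (log2 fold change -0.02, 95% interval -0.39 to 0.35). With anti-LAIR-1 it was at 36.1, 53.4 and 42.3 CPM and at 39.2, 40.8 and 28.6 CPM (log2 fold change -0.29, interval -0.62 to 0.04). The unstimulated libraries of Il4ra spread more than the stimulated isotype ones, with SDs of 12.7 and 1.28 CPM.

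The 2 chains of the IL-6 receptor both fell with anti-CD3, by unequal amounts. Il6ra, which binds IL-6, went from 56.7, 45.6 and 34.7 CPM to 3.99, 6.43 and 3.89 CPM with isotype, 10.1-fold lower (log2 fold change -3.34, SE 0.24, adjusted p = 1.58e-11). With anti-LAIR-1 it went from 66.7, 57.6 and 36.1 CPM to 7.72, 6.12 and 8.25 CPM, 7.35-fold lower. In each unstimulated group mouse 1 had the highest and mouse 3 the lowest level. Il6st encodes gp130, the signalling chain that IL-6 shares with IL-11, IL-27, LIF and oncostatin M. It went from 38.2, 27.3 and 27.3 CPM to 18.7, 13.9 and 14.6 CPM with isotype, 2.12-fold lower (log2 fold change -1.08, SE 0.20, adjusted p = 4.54e-05), and from 35.0, 34.2 and 35.1 CPM to 22.6, 15.1 and 18.2 CPM with anti-LAIR-1, 1.87-fold lower. The 95% intervals of Il6ra (-3.84 to -2.84) and Il6st (-1.50 to -0.67) with isotype did not overlap.

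Il10ra, the ligand-binding chain of the receptor for IL-10, was lowly expressed and nearly lost after stimulation. With isotype it had 26, 21 and 13 counts without anti-CD3 and 0, 1 and 0 counts with it. Corrected for library size, the summed counts of 60 and 1 gave a ratio of 114, with an exact 95% interval of 19.6 to 4564 for counting error alone. With anti-LAIR-1 it had 20, 23 and 17 counts without anti-CD3 and 4, 6 and 1 counts with it, 8.79-fold lower (interval 4.58 to 18.5). Il10ra was called lower in both comparisons (adjusted p = 1.63e-08 and 6.81e-06). It entered these tests through its unstimulated libraries and was too low to be tested in a fit of the stimulated groups alone.

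Both chains of the interferon-γ receptor fell. Ifngr1, the ligand-binding chain, was at 425, 471 and 472 CPM in unstimulated isotype libraries and at 43.0, 25.3 and 37.4 CPM with anti-CD3. With anti-LAIR-1 it was at 495, 477 and 449 CPM and at 50.8, 48.0 and 68.5 CPM. This was 13.8-fold lower with isotype (log2 fold change -3.78, SE 0.14, adjusted p = 7.15e-17) and 8.66-fold lower with anti-LAIR-1 (-3.11, SE 0.11, adjusted p = 1.21e-14). Ifngr2, the accessory chain that is needed for signalling, went from 76.0, 94.3 and 101 CPM to 10.8, 6.43 and 11.3 CPM with isotype, 9.92-fold lower (log2 fold change -3.31, SE 0.19, adjusted p = 1.84e-13). With anti-LAIR-1 it went from 109, 93.7 and 88.4 CPM to 11.2, 11.9 and 14.4 CPM, 7.91-fold lower (-2.98, SE 0.14). Mouse 2 had the lowest level of both chains among the anti-CD3 isotype libraries. The intervals of the 2 chains overlapped, at -4.06 to -3.50 for Ifngr1 and -3.70 to -2.92 for Ifngr2 with isotype.

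The 2 chains of the type I interferon receptor did not move together. Ifnar1 went from 50.1, 60.2 and 68.3 CPM to 14.4, 16.1 and 16.5 CPM with isotype, 3.93-fold lower (log2 fold change -1.98, SE 0.17, adjusted p = 2.97e-10). With anti-LAIR-1 it went from 59.3, 61.9 and 50.1 CPM to 20.2, 24.0 and 29.8 CPM, 2.37-fold lower (-1.25, SE 0.15, adjusted p = 3.12e-07). Ifnar2, the chain with high affinity for interferon, was at 32.9, 26.6 and 38.9 CPM without and 25.2, 29.2 and 26.7 CPM with anti-CD3 in the isotype libraries, which overlapped (-0.34, interval -0.70 to 0.03). In the anti-LAIR-1 libraries Ifnar2 was at 30.0, 33.7 and 36.9 CPM and at 29.5, 30.3 and 28.1 CPM (-0.21, interval -0.49 to 0.07). Its interval with isotype lay above that of Ifnar1 (-2.32 to -1.63). Whether Ifnar2 passed depended on the processing. With isotype it also passed at -0.39 when 10 counts were required in every library (adjusted p = 0.0492), at -0.43 when scaled by library totals alone (0.0346), at -0.48 with all libraries thinned to the smallest total (0.0459), and at -0.47 without mouse 2 of the unstimulated isotype group (0.0277). With anti-LAIR-1 it passed at -0.32 when scaled by library totals alone (adjusted p = 0.0406). Upper-quartile scaling moved the median of all genes to -0.20 with isotype and -0.24 with anti-LAIR-1. Ifnar2 was then at -0.51 and -0.42 and called lower in both (adjusted p = 0.0115 and 0.00925). Il4ra was at -0.50 in the anti-LAIR-1 libraries and called lower as well (adjusted p = 0.00837). In these libraries Il4ra also passed at -0.40 when scaled by library totals alone (adjusted p = 0.0277) and at -0.57 after thinning (0.00624). Without mouse 1 of the unstimulated anti-LAIR-1 group it passed at -0.40 (0.0378).

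**Figure D2:**
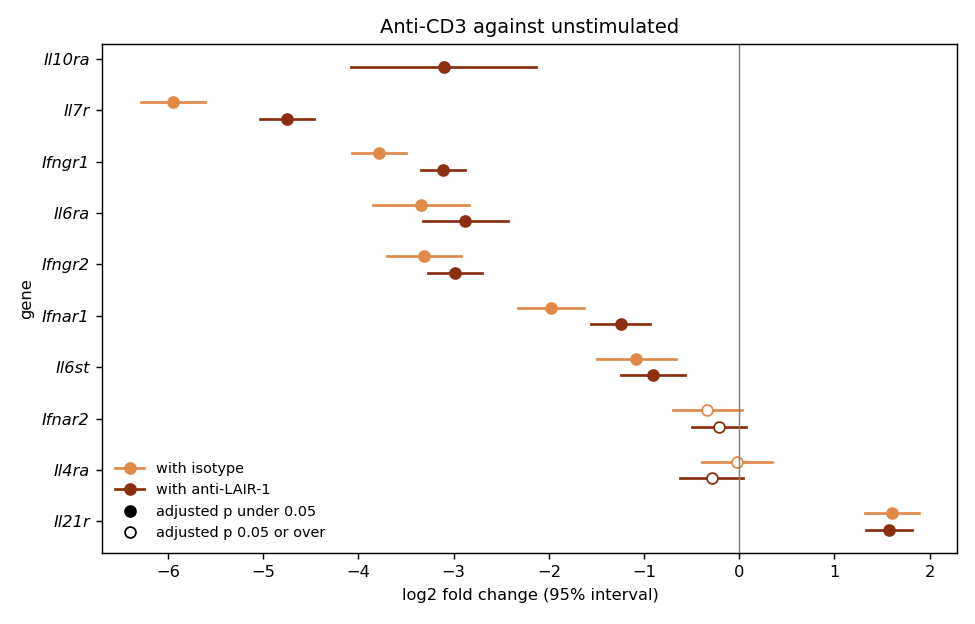
Log2 fold change between anti-CD3 and unstimulated libraries for each receptor gene, with isotype and with anti-LAIR-1, with 95% intervals of the edgeR fit over 3 libraries per group; Il10ra with isotype is left out, since it had 1 count in its stimulated libraries. Only Il21r lies right of 0 with both intervals clear of it, and Ifnar2 and Il4ra have open symbols.

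In cells stimulated with anti-CD3, triggering of LAIR-1 was followed by higher RNA of Il7r, Ifngr1 and Ifnar1, which was 3 of the 9 receptor genes tested. None was lower. Among all 8800 genes tested, 5.76% were called in this comparison, 3.90% higher and 1.86% lower. The median log2 fold change of the 9 genes was 0.39, against 0.00 for all genes, and the differences of 8 of the 9 were above 0. The 3 called genes were also the ones whose groups did not overlap, which was so for 24.4% of all genes. This comparison shares its stimulated libraries with the anti-CD3 comparisons.

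Il7r stood at 5.84, 5.79 and 5.02 CPM with isotype and at 13.3, 12.4 and 15.9 CPM with anti-LAIR-1, from 19, 27 and 31 counts against 98, 73 and 75 counts. The difference was 2.51-fold (log2 fold change 1.33, SE 0.22, adjusted p = 0.00124), it was higher in 3 of 3 mice, and 0.534% of the 8800 genes had a higher fold change. The anti-LAIR-1 level was still far under the unstimulated one. The call was kept with each library left out in turn, and was lost only when every library was thinned to the smallest total (1.19, adjusted p = 0.0558), where Il7r has few counts. The markers of naïve T cells moved in the same direction in this comparison, with 5 of 6 higher, a median log2 fold change of 0.81 and S1pr1, which lets T cells leave lymphoid organs, at 1.97 (SE 0.16, adjusted p = 1.62e-06). Of the 10 CD8+ T cell markers, 5 were higher and 1 lower (median 0.33). Of the 7 activation markers, 0 were higher and 1 was lower (median -0.11). Among all genes tested, 3.90% were higher and 1.86% lower. The part of these marker genes in the difference of Il7r was not tested.

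Ifngr1 was 1.59-fold higher with anti-LAIR-1 (log2 fold change 0.67, SE 0.17, adjusted p = 0.0236), with 25.3 to 43.0 CPM with isotype and 48.0 to 68.5 CPM with anti-LAIR-1. The differences per mouse were 0.24, 0.91 and 0.87 on the log2 scale, so that mouse 1 contributed least. Without mouse 2 of the isotype group the value was 0.48 (adjusted p = 0.120), and without mouse 3 of the anti-LAIR-1 group it was 0.50 (adjusted p = 0.104). Ifnar1 was 1.55-fold higher (0.63, SE 0.17, adjusted p = 0.0389), with 14.4 to 16.5 CPM against 20.2 to 29.8 CPM and differences of 0.47, 0.56 and 0.83 per mouse. Its call was lost when any of 5 of the 6 libraries was left out, with adjusted p-values of 0.102, 0.0984 and 0.0820 without isotype mouse 1, 2 and 3 and of 0.0911 and 0.164 without anti-LAIR-1 mouse 2 and 3. With the mouse as a block it passed in edgeR but not in DESeq2 (adjusted p = 0.197), and thinned to the smallest total it was 0.39 (adjusted p = 0.464).

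The other receptor genes did not pass between the stimulated groups. Il6ra was at 3.99, 6.43 and 3.89 CPM with isotype and 7.72, 6.12 and 8.25 CPM with anti-LAIR-1, a log2 difference of 0.62 (interval 0.04 to 1.21, adjusted p = 0.229). Mouse 2 did not share the direction of the others. Ifngr2 differed by 0.39 (interval -0.09 to 0.86) and Il6st by 0.28 (interval -0.12 to 0.68). Il4ra (-0.15, interval -0.43 to 0.13), Il21r (0.07, interval -0.12 to 0.26) and Ifnar2 (0.12, interval -0.16 to 0.39) were the closest to 0. Il10ra had 1 count in all isotype libraries and 11 in all anti-LAIR-1 libraries, a ratio of 8.62 with a counting interval of 1.25 to 371. The counts were summed over the mice, so that this interval leaves out the spread between them. In the edgeR fit of all 12 libraries the difference of Il10ra did not pass (adjusted p = 0.154).

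Without anti-CD3, none of the 10 receptor genes differed between anti-LAIR-1 and isotype in edgeR, none had an unadjusted p-value under 0.05, and DESeq2 called none. In this comparison 0% of 8770 genes were called and 4.38% had an unadjusted p-value under 0.05. Il7r differed by 0.16 (interval -0.08 to 0.40), Ifngr1 by 0.03 (interval -0.15 to 0.21) and Ifnar1 by -0.07 (interval -0.38 to 0.24). Il10ra was the lowest of the 10 at -0.59 (interval -1.28 to 0.10), with 8.63, 8.32 and 6.83 CPM with isotype and 5.51, 6.05 and 4.55 CPM with anti-LAIR-1. It was the only one of the 10 whose groups did not overlap, which was so for 9.86% of all genes. Both anti-LAIR-1 comparisons rest on different libraries of the same 3 mice.

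Whether the effect of anti-LAIR-1 depended on anti-CD3 was tested as an interaction over all 12 libraries. It passed for Il7r, with 1.17 on the log2 scale (SE 0.25, interval 0.65 to 1.69, adjusted p = 0.0100), so that the anti-LAIR-1 effect was 2.25-fold larger with anti-CD3 than without. Per mouse the interaction was 0.90, 0.89 and 1.40. Of 9223 genes, 2.07% were called, 1.82% with an interaction above 0. The call of Il7r was lost without mouse 3 of the anti-CD3 isotype group (1.09, adjusted p = 0.0618) and after thinning to the smallest library total (1.11, adjusted p = 0.179). Ifngr1 had 0.64 (interval 0.26 to 1.02, adjusted p = 0.0752) and Ifnar1 0.70 (interval 0.23 to 1.17, adjusted p = 0.131), so that a difference of their anti-LAIR-1 effects between the conditions was not shown. Ifngr1 passed in DESeq2 (adjusted p = 0.0271).

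**Figure D3:**
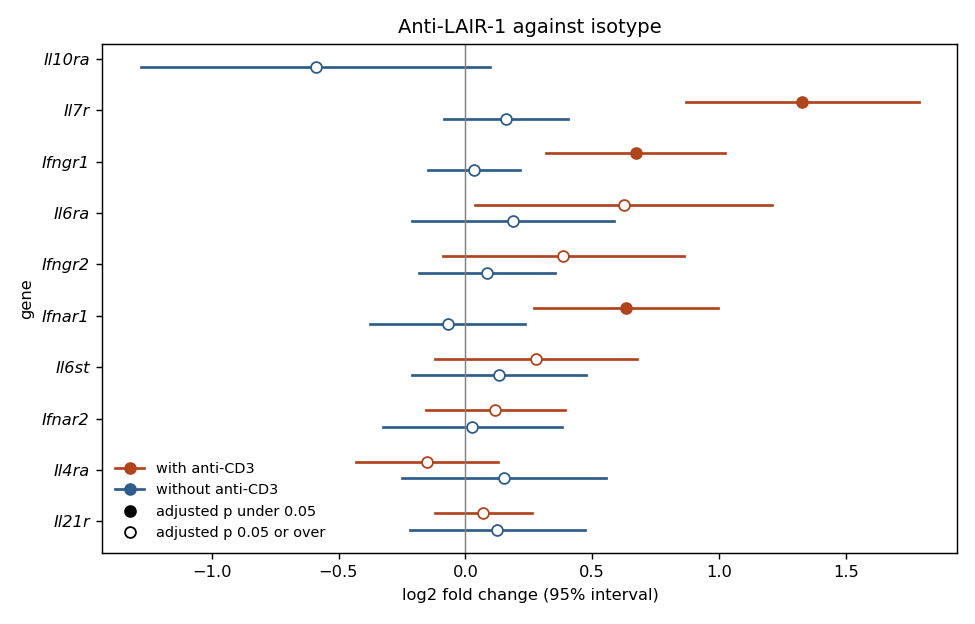
Log2 fold change between anti-LAIR-1 and isotype libraries for each receptor gene, with and without anti-CD3, with 95% intervals of the edgeR fit over 3 libraries per group; Il10ra was too low to be tested with anti-CD3. Filled symbols mark Il7r, Ifngr1 and Ifnar1 at 1.33, 0.67 and 0.63 with anti-CD3, and all values without anti-CD3 have open symbols.

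In the order of the 4 conditions by mean CPM, 6 of the 10 genes (Il7r, Il6ra, Il6st, Ifngr1, Ifngr2 and Ifnar2) ran from unstimulated anti-LAIR-1 over unstimulated isotype and anti-CD3 anti-LAIR-1 to anti-CD3 isotype. For Il10ra and Ifnar1 the unstimulated groups changed places, for Il21r the stimulated groups were on top, and for Il4ra and Ifnar2 no neighbours differed beyond their spread. Over the 10 genes, 11 of the 30 steps between neighbours passed in a fit of all 12 libraries. In 8 genes the step between the unstimulated and the stimulated groups passed, and in Il7r, Ifngr1 and Ifnar1 the step between the stimulated groups also passed (adjusted p = 0.000261, 0.00411 and 0.0243). No step between the unstimulated groups passed. For Il7r, Il6ra, Il6st, Il21r, Ifngr1 and Ifngr2 the groups on the 2 sides of the stimulation step differed by both antibodies. Among all 9223 genes of this fit, anti-CD3 changed 6552 with isotype and 6591 with anti-LAIR-1, so that a change with anti-CD3 was common. The share of all genes that pass where both antibodies differ is not given here. Anti-LAIR-1 changed 490 genes in stimulated cells and 0 in unstimulated cells. The steps reuse the libraries of the comparisons above and are not separate evidence.

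The chains that complete these receptors did not follow a single direction. Il2rg, the common gamma chain used by the receptors for IL-4, IL-7 and IL-21, went from 1774, 2069 and 2087 CPM to 2872, 2758 and 2693 CPM with isotype, 1.33-fold higher (log2 fold change 0.41, SE 0.08, adjusted p = 0.000135). With anti-LAIR-1 it was 1.67-fold higher (0.74, SE 0.07, adjusted p = 3.18e-08). Il10rb, the second chain for IL-10, went from 31.2, 35.7 and 38.9 CPM to 17.8, 12.7 and 12.1 CPM with isotype, 2.65-fold lower (-1.41, SE 0.20, adjusted p = 1.31e-06), and was 2.42-fold lower with anti-LAIR-1. Crlf2, which joins Il7r in the receptor for TSLP, passed with anti-CD3 only in the anti-LAIR-1 libraries (0.48, SE 0.16, adjusted p = 0.0135), with 0.20 (interval -0.21 to 0.61) in the isotype libraries, and a difference between these values was not shown (interaction 0.25, interval -0.26 to 0.76). Il13ra1, the second chain of the IL-13 receptor, had 0 to 2 counts per library. Between anti-LAIR-1 and isotype none of the 3 tested partners passed, with or without anti-CD3.

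Several of these genes are neighbours in the genome. In GENCODE M21 (mm10), Ifnar2 (chr16:91372783-91405589), Il10rb (chr16:91406164-91425834), Ifnar1 (chr16:91485238-91507441) and Ifngr2 (chr16:91547072-91565623) follow each other on the plus strand of chromosome 16. The gaps are 0.574, 59.4 and 39.6 kb, and no other protein-coding gene lies wholly within them. The log2 fold changes of these genes with anti-CD3 and isotype were -0.34, -1.41, -1.98 and -3.31 in this order. With anti-LAIR-1 they were -0.21, -1.28, -1.25 and -2.98. Il4ra (chr7:125552120-125579474) and Il21r (chr7:125603429-125633570), 24.0 kb apart on the plus strand of chromosome 7, had -0.02 and 1.60 with isotype. Il7r (chr15:9505788-9530176, minus strand), Ifngr1 (chr10:19591949-19610229, plus strand), Il6ra (chr3:89864059-89913196, minus strand), Il6st (chr13:112464070-112510086, plus strand) and Il10ra (chr9:45253837-45269149, minus strand) lie apart from each other. The annotation has a protein-coding read-through gene, Gm21970, that overlaps Ifnar2 and Il10rb on the same strand and spans the gap between them. Gm20489, also protein-coding, overlaps Il2rg on the same strand. Neither has a row of its own in the counts, so that reads shared with them cannot be told apart.

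**Figure D4:**
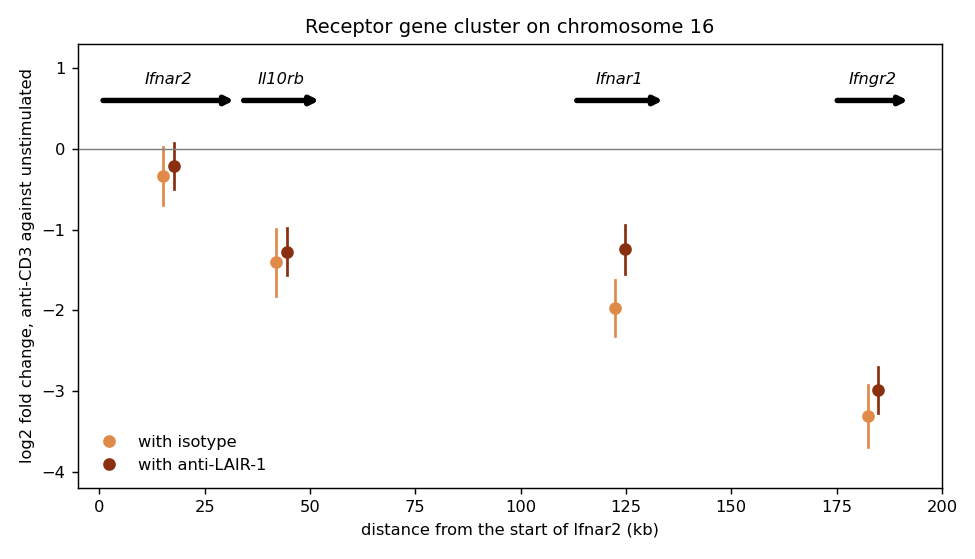
The 4 receptor genes on chromosome 16, drawn to scale by distance in kb from the start of Ifnar2, with arrows in the direction of transcription, above their log2 fold changes between anti-CD3 and unstimulated libraries (95% intervals, 3 libraries per group). The value with isotype is -0.34 at Ifnar2, which did not pass the test, and -3.31 at Ifngr2.

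Across the 12 libraries, the pair with the most alike pattern was Ifngr1 and Ifngr2, with a Pearson r of 0.997 of log2 CPM. Il7r and Ifngr1 had 0.993, and Ifnar1 and Ifnar2 had 0.643. Il21r ran opposite to Il7r (r of -0.967), and Il4ra had r between -0.26 and 0.14 with the other 9. The libraries share mice, and differences between the 4 conditions enter each r. Among 6399 genes with a mean of at least 50 counts, those most like Il7r were Fam101b, Itga4 and D4Wsu53e (r of 0.999 each), those most like Ifngr1 were Pink1, Gpx4 and Ifngr2 (0.997 each) and those most like Ifnar1 were Neat1, Gpcpd1 and 1110007C09Rik (0.994, 0.990 and 0.990). Itga4 encodes the α4 integrin chain and Neat1 is a nuclear noncoding RNA. The highest r with any gene was 0.835 for Il4ra (Htt), 0.929 for Ifnar2 (Zkscan17) and 0.997 for Il21r (Chst2).

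Of 16 ligands of these receptors, 4 had a row in the counts, and only Ifng, Lif and Osm had enough reads for any test. Ifng, the ligand of Ifngr1 and Ifngr2, had 0 counts in the 3 unstimulated isotype libraries and was at 39.3, 38.6 and 38.7 CPM with anti-CD3 and isotype. It was at 16.9, 15.3 and 9.73 CPM with anti-CD3 and anti-LAIR-1, a log2 difference of -1.44 from isotype (SE 0.17, adjusted p = 4.09e-05), while Ifngr1 was 0.67 higher in the same libraries. Lif, a ligand that signals through gp130, had 0 counts in all 6 unstimulated libraries, 5.84, 4.07 and 9.88 CPM with anti-CD3 and isotype and 1.08, 0.34 and 1.69 CPM with anti-LAIR-1 (-2.72, SE 0.46, adjusted p = 0.00171). It had 8, 2 and 8 counts in these anti-LAIR-1 libraries and entered this test through its isotype libraries alone, so that the size of its difference is uncertain. Osm did not pass between the stimulated groups (-0.84, adjusted p = 0.275).

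Of the 11 JAK and STAT genes, 3 were higher and 5 lower with anti-CD3 and isotype, with a median log2 fold change of -0.38, and 4 were higher and 5 lower with anti-CD3 and anti-LAIR-1, with a median of -0.26. Of all genes tested, 71.3% and 72.7% were called in these comparisons, so that such counts were common. Between the stimulated groups 5.76% of all genes were called. Jak1, the kinase used by all these receptors, went from 867 to 212 CPM on average with isotype (-2.11, SE 0.09, adjusted p = 4.74e-16). Stat2 and Stat5b, which act in type I interferon and IL-7 signalling, were lower as well, with log2 fold changes of -1.89 and -1.73. With anti-LAIR-1 in stimulated cells, Jak1 was 0.30 higher than with isotype (SE 0.07, adjusted p = 0.0215), and none of the 11 was lower. Without anti-CD3, 0 of the 11 passed.

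Of the 15 feedback inhibitors tested, 7 were higher and 5 lower with anti-CD3 in the isotype and in the anti-LAIR-1 libraries, with medians of 0.21 and 0.25. The shares called among all genes were 71.3% and 72.7%, and 5.76% between the stimulated groups. Cish, a STAT5-induced inhibitor, went from 5.72 to 85.6 CPM with isotype (3.88, SE 0.22, adjusted p = 1.44e-13), while Socs3, the inhibitor of gp130 signalling, went from 17.0 to 3.50 CPM (-2.40, SE 0.30, adjusted p = 1.81e-07). Between the stimulated groups Cish was the only inhibitor that passed, at 75.0, 79.1 and 103 CPM with isotype and 24.9, 27.5 and 23.1 CPM with anti-LAIR-1 (-1.77, SE 0.13, adjusted p = 9.47e-07).

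Genes that respond to interferons moved in both directions. With anti-CD3 and isotype, 7 of 17 tested were higher and 7 lower (median -0.06). Among them, the transcription factor Irf8 went from 2.24 to 375 CPM (7.34, SE 0.21), and Ifit2 fell by 2.71 on the log2 scale. Irf8 had 4, 7 and 5 counts in its unstimulated libraries and entered this test through its stimulated ones alone. Ifit2 had 7, 8 and 13 counts in its stimulated libraries and entered through its unstimulated ones alone. The sizes of both changes are therefore uncertain. Iigp1, also called higher, had 1, 0 and 0 counts unstimulated and entered in the same way as Irf8. With anti-LAIR-1, 8 of 19 were higher and 8 lower (median -0.07). The shares called among all genes were 71.3% with isotype and 72.7% with anti-LAIR-1, and 5.76% between the stimulated groups. Between the stimulated groups 2 of 17 were higher and 1 lower with anti-LAIR-1 (median 0.30). These were Gbp4, a guanylate-binding protein (39.0 against 57.2 CPM, log2 fold change 0.55, adjusted p = 0.0110), the immunoproteasome subunit Psmb8 (63.5 against 85.6 CPM, 0.42, adjusted p = 0.0271) and Irf8 (375 against 256 CPM, -0.54, adjusted p = 0.0137). None of 17 passed without anti-CD3.

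Of the genes that respond to IL-7, IL-4, IL-6 or IL-21, 2 of 12 tested were higher and 5 lower with anti-CD3 and isotype (median -0.03), and 3 were higher and 7 lower with anti-CD3 and anti-LAIR-1 (median -0.26). The shares called among all genes were 71.3% and 72.7%, and 5.76% between the stimulated groups. Gfi1, a transcriptional repressor, rose from 28.8 to 147 CPM with isotype (2.31, SE 0.17), and Bcl3, an IκB family member, fell from 34.6 to 8.72 CPM (-2.04, SE 0.25). Between the stimulated groups Bcl6, a repressor that opposes Prdm1, was higher with anti-LAIR-1 (8.56 against 17.3 CPM, 1.07, adjusted p = 0.00654) and the kinase gene Pim1 was lower (585 against 319 CPM, -0.87, adjusted p = 0.00333), 1 of 11 each way (median -0.05).

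Other cytokine receptors gave a further point of reference. Of 38 listed chains, 10 were tested with anti-CD3 and isotype, and 4 were higher and 3 lower (median 0.50). Of all genes tested, 71.3% were called in this comparison. Il15ra, a chain for IL-15, and Il12rb1, a chain for IL-12 and IL-23, were among those called higher, with 0 and 1 counts in all unstimulated isotype libraries, and their folds are not given. Both entered this test through their stimulated libraries alone, and the 4 higher genes and the median include them. Il2ra rose from 8.94 to 301 CPM (5.00, SE 0.15, adjusted p = 3.19e-18). In the anti-LAIR-1 libraries 4 of 11 were higher and 3 lower (median 0.26), while 72.7% of all genes were called. Il15ra and Il12rb1 were again among the higher ones and again entered through their stimulated libraries. Between the stimulated groups Il2ra was lower with anti-LAIR-1 (-0.49, SE 0.08, adjusted p = 0.000820) and Il17ra, a receptor chain for IL-17, was higher (0.55, SE 0.13, adjusted p = 0.0192), with 28.3, 30.9 and 39.8 CPM against 45.4, 52.4 and 49.1 CPM. The other 9 of 11 did not pass (median of the list 0.01), and none of 7 passed without anti-CD3.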

How the data were processed

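RNA of naïve CD8+ T cells was sequenced by CEL-seq, a method that reads the 3′ end of transcripts. Per the study's methods, BWA MEM was the aligner and mm10 transcripts were its target, and a read without a single best place was left out. The authors deposited raw read counts per gene symbol, without normalization. Whether reads of 1 molecule were collapsed is not given in the sources used here, so that intervals and limits drawn from counts cover counting error only.

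The deposited counts were tested in edgeR 4.0.16 under R 4.3.3, with the filter filterByExpr, TMM scaling and the quasi-likelihood F-test. P-values were adjusted by Benjamini-Hochberg for the whole tested table at a threshold of 0.05. Each fit held the 6 libraries compared or, for the interaction and the order of conditions, all 12. An exact permutation test with 3 against 3 cannot go below p = 0.1 and was not used. The mouse numbers pair the libraries, since cells were sorted per mouse. Deviations from group means correlated by -0.01 to 0.11 across genes between libraries of a mouse (mean 0.05). Between libraries of different mice they correlated by -0.07 to 0.02 (mean -0.03). The main tests did not use this pairing. The fit with the mouse as a block was an alternative. DESeq2 1.42.0, other scalings and filters, all 12 libraries in 1 fit and each library left out were the others. Library totals alone, thinning to the smallest total and counts without Il10ra were added after the data were seen. The fits were tested on simulated counts.

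The members, lists and tests were chosen with earlier results of these data known. Named were all receptor genes and partners, up to 3 genes per list and comparison with the largest changes at an adjusted p under 0.05, and the 3 genes most like each receptor gene; others were named for a count of 5 or fewer or as leading markers of a list. Replicates of a group differed by 3.82 to 5.62 times the sampling variance. Promoters are RefSeq's, matched by symbol for 9 of 10 genes. A planned search of the receptor proteins was not run. A result of the JAK and STAT list is not reported here.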

Additional observations from a re-analysis of the deposited data

Results flagged for a closer look

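Il7r was singled out because its difference between anti-LAIR-1 and isotype itself differed between stimulated and unstimulated cells, with an interaction of 1.17 on the log2 scale over all 12 libraries. This interaction no longer passed without mouse 3 of the anti-CD3 isotype group (1.09, adjusted p = 0.0618 in edgeR) or after thinning to the smallest total (1.11, adjusted p = 0.179). With anti-CD3 the anti-LAIR-1 difference was 1.33 (interval 0.87 to 1.79), and without anti-CD3 it was 0.16 (interval -0.08 to 0.40). No group has the 4 to 10 libraries that a search for single outlying libraries needs.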

How the results depend on the processing

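Over 827 recomputed log2 fold changes of the receptor genes, 776 kept their direction and their side of the threshold. Another 15 newly passed, 12 no longer passed and 24 changed sign, and the cause was not tested. With anti-LAIR-1 in stimulated cells, 3 genes were called, against 1 when libraries were thinned to the smallest total and 1 to 3 with a library left out. The interaction was called for 1 gene, against 2 in DESeq2, 2 without a filter on low counts, 2 in DESeq2 with the mouse as a block, 0 after thinning and 0 to 2 with a library left out. With a library left out, 8 to 9 genes were called in each anti-CD3 comparison, 0 to 0 without anti-CD3, and 9 to 11 steps of the order passed. The mouse as a replicate block took Ifnar1 below the threshold in DESeq2 (0.64) and changed no other call of these genes against the same tool without the block.

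The values that changed sign had not passed the test. Il4ra with anti-CD3 and isotype was at 0.073 without a filter, 0.013 and 0.042 with the replicate block in edgeR and DESeq2, 0.014 in the fit of all 12 libraries and -0.21 to 0.23 with a library left out. Thinning gave -0.034 for Ifngr2 with anti-LAIR-1 and anti-CD3, -0.10 for its interaction, and -0.00096 for Il6st and -0.15 for Ifnar2 without anti-CD3. With a library left out, the anti-LAIR-1 differences without anti-CD3 were -0.093 to 0.16 for Ifnar2, -0.027 to 0.070 for Ifngr1, -0.046 to 0.17 for Ifngr2, -0.034 to 0.41 for Il4ra and -0.20 to 0.038 for Ifnar1. The interactions were -0.030 to 0.28 for Il6st, -0.13 to 0.026 for Il21r and -0.035 to 0.21 for Ifnar2.

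Over all genes, 507 were called with anti-LAIR-1 in stimulated cells, against 239 with the block in DESeq2, 293 after thinning and 293, 315 and 334 without isotype mouse 2, anti-LAIR-1 mouse 2 and anti-LAIR-1 mouse 3. The fit of all 12 libraries moved the share of higher calls from 67.7% to 79.8%. The interaction had 191 calls, against 110 after thinning and 103 to 186 with a library left out. Without anti-CD3, 5 genes were called without a filter. Il10ra, with at most 6 counts per stimulated library, is limited by depth.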
